A study of Sus scrofa with 48 samples.

Results

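The expression of genes that drive DNA replication and cell division was examined in whole blood of pigs from 2 lines selected in opposite directions on residual feed intake (RFI), the feed eaten beyond what growth and maintenance predict. The gene set held 38 listed cell cycle and proliferation genes. A gene was measured when at least 1 spot bearing its name, irrespective of letter case, was among the 37113 spots retained by the authors. This was the case for 25 of the 38 genes, through 40 spots, out of 10946 named genes in all. BUB1, CCNE1 and RRM1 had a spot of that name but none retained, and CCNA2, CCNE2, CDT1, BUB1B, TYMS, MCM4, MCM5, MCM7, FEN1 and TK1 had no spot of that name. The blood came from 48 French Large White castrated males slaughtered at 132 days of age, 24 of the efficient low RFI line and 24 of the less efficient high RFI line. In each line, 12 pigs were fed ad libitum a high-fat, high-fiber (HF) diet and 12 a low-fat, low-fiber (LF) diet. Each pig was 1 biological replicate with 1 single-colour array. Whole blood mixes all circulating cells, so that fewer cells of a type and less RNA per cell cannot be told apart.

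Before a cell copies its genome, CDC6 and CDT1 load the MCM helicase onto replication origins, and CDC45 and the GINS complex then activate it. PCNA clamps the polymerases to DNA, and RRM2 belongs to the enzyme that makes deoxyribonucleotides. Entry into mitosis is driven by CDK1 with its B-type cyclins, and the spindle is built and checked by the aurora kinases, PLK1, TPX2, KIF11 and TTK. The anaphase-promoting complex, with its activator CDC20 and the ubiquitin-conjugating enzyme UBE2C, then marks mitotic proteins for destruction. Most leukocytes in blood are not dividing. Transcripts of this kind in blood can come from activated lymphocytes, plasmablasts and immature cells, including late erythroid cells, whose precursors divide in the bone marrow.

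All values below are log2 signals relative to the median of the array (0 is the median retained spot), averaged over the retained spots of a gene. A level of 1 gene cannot be set against that of another gene on an array. Differences are given on the log2 scale with their standard error (SE) from limma, with P-values adjusted by Benjamini-Hochberg over all 10946 genes. The 40 spots were well above background on all 48 arrays. The arrays lay on 6 slides, with 2 arrays of each group per slide, and the median correlation of an array with the other arrays was between 0.966 and 0.987. The retained spots held 6 of 10 listed genes of licensing and helicase, 3 of 7 of S phase and nucleotide supply, 3 of 6 cyclins and their kinase and 13 of 15 of mitosis.

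What a probe reads decides what each value means, so the probes on which the results turn are shown first, each 5′ to 3′ as on the array. UBE2C was the gene with a line effect past the adjusted threshold, TTK had the second largest line estimate, and TOP2A, a topoisomerase that untangles replicated chromosomes, served as the reference gene for co-variation:
UBE2C A_72_P368728: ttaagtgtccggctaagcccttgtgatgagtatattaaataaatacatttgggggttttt
TOP2A A_72_P298629: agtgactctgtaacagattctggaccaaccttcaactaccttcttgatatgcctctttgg
TTK O13817: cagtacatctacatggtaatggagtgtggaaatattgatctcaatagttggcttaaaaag

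The 3 retained probes of AURKA, the kinase of spindle poles, are shown because their line differences were unequal. Capitals mark the 27 bases that A_72_P078066 and A_72_P477497 have in common:
AURKA A_72_P477497: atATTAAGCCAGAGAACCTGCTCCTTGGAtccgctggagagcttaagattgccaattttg
AURKA A_72_P078066: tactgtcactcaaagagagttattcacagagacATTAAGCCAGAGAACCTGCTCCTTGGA
AURKA A_72_P073831: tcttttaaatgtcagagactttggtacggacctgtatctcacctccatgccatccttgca

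The 3 probes named MKI67, the proliferation antigen Ki-67, did not all carry the accession of that gene. The first and second below were designed on a transcript that the RefSeq table of the Sscrofa11.1 assembly now lists under NIFK, a nucleolar protein that binds Ki-67 and was formerly called MKI67IP:
MKI67 A_72_P137636: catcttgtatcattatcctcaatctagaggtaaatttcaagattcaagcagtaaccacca
MKI67 A_72_P441843: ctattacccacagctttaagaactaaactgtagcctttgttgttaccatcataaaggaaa
MKI67 O7450: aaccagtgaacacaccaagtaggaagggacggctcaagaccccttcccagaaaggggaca

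The probes of AURKB, the kinase of the chromosomal passenger complex, and of CCNB2, cyclin B2, are shown because at least 1 probe of each gene did not vary with the others over the pigs:
AURKB A_72_P440256: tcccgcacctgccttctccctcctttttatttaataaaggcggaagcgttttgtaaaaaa
AURKB A_72_P735663: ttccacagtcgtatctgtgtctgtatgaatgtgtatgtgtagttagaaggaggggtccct
AURKB A_72_P745159: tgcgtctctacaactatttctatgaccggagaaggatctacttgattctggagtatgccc
CCNB2 A_72_P440521: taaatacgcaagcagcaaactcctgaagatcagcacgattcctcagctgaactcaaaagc
CCNB2 A_72_P775809: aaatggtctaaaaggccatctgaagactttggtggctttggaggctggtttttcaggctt

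The 40 retained probes were 60 bases long with a GC content of 35% to 55%. For 17 of them, an accession on the array matched a RefSeq pig transcript listed under the same symbol. The other probes, apart from both NIFK probes, had no match in that table, and their names are those of the array design. The symbols of all 25 genes were in the RefSeq table. Both probes of CDC20 had the same 60 bases, as did A_72_P311318 and A_72_P552061 of CDC45, which had 50 bases in common with A_72_P035116. These spots are therefore not separate measures of different transcript regions.

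The first question was whether selection for feed efficiency changed the expression of proliferation genes in blood. UBE2C was overexpressed in the low RFI line, and no other of the 25 genes passed the adjusted threshold of 0.05. The helicase subunits, PCNA and TOP2A had line estimates between -0.02 and 0.09, with unadjusted P-values from 0.295 to 0.93. In low RFI pigs UBE2C ranged from 2.42 to 3.81 with a median of 3.15, and in high RFI pigs from 2.10 to 3.55 with a median of 2.67 (n = 24 each). The lines overlapped, but 20 of the 24 efficient pigs lay above the median of the other line. Mean UBE2C was 3.16 ± 0.36 (SD) in low RFI and 2.73 ± 0.32 in high RFI pigs, a difference of 0.44 ± 0.09 (SE; FC = 1.35; adjusted P-value = 0.0029). With all non-control spots kept, which averages in a UBE2C spot above background on 2 of 48 arrays, the difference was 0.27 (adjusted P-value = 0.015). By this criterion 3.29% of all genes were DE between lines, and 1.65% were overexpressed in low RFI pigs, against 1 of 25 here.

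**Figure D1:**
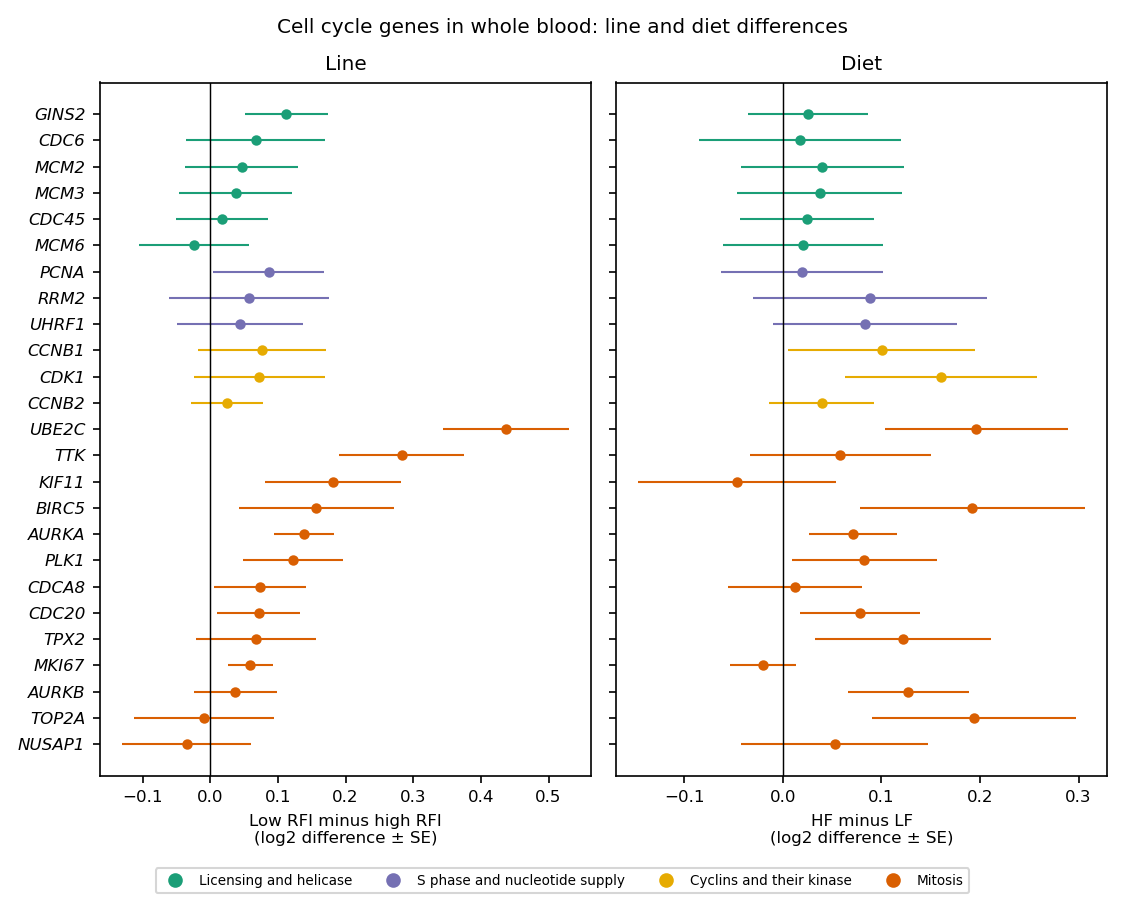
Log2 difference ± SE of each of the 25 genes between lines (left, low RFI minus high RFI) and between diets (right, HF minus LF), grouped by role and coloured by it. UBE2C stands farthest from 0 in the line panel at 0.44, and 22 of 25 line estimates and 23 of 25 diet estimates lie above 0.

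The UBE2C difference was present in both diets. Group means were 3.21 and 3.11 in low RFI pigs fed the HF and LF diets, and 2.87 and 2.58 in the corresponding high RFI pigs. Within each of the 6 slides, low RFI pigs were on average above high RFI pigs, by 0.29 to 0.73 (4 pigs per line and slide). The value rests on 1 probe, without a match in the RefSeq table, because the other UBE2C spot was well above background on 2 of 48 arrays only.

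Of the 12 listed erythroid genes 10 were measured, and 9 of these had a positive line estimate with a median of 0.11, beside 63.9% of all genes. Other lists had similar counts, with 8 of 9 T cell, 6 of 7 immature granulocyte and 3 of 4 plasmablast genes above 0 and medians of 0.14, 0.11 and 0.11. The anion exchanger SLC4A1 passed the adjusted threshold with 0.26 ± 0.07 (adjusted P-value = 0.040), with an interaction of -0.48 ± 0.15 (P-value = 0.0021, adjusted P-value = 0.88), so that its line difference was not alike in both diets by the unadjusted test. The mean of the 10 erythroid genes ranged from 1.15 to 2.51 in low RFI and from 0.81 to 2.31 in high RFI pigs, with medians of 1.74 and 1.82. Its average over the pigs was 1.80 ± 0.41 (SD) in low RFI and 1.67 ± 0.39 in high RFI pigs, so that averages and medians differed in direction. The lines overlapped almost entirely on this mean, and the part of erythroid RNA in the UBE2C difference was not tested.

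TTK and AURKA came next, past an unadjusted P-value of 0.01 and a fold change of 1.1, the criterion given in the methods of the study, but not past the adjusted threshold. TTK, which signals from unattached kinetochores, ranged from -0.76 to 0.71 in low RFI pigs (median -0.31) and from -1.06 to 0.06 in high RFI pigs (median -0.49). The lines overlapped, and 20 of 24 pigs of the first line exceeded the median of the second. The difference was 0.28 ± 0.09 (P-value = 0.0035; adjusted P-value = 0.081). Within slides it lay between 0.07 and 0.85, with 0.85 on a single slide and at most 0.31 on the other slides. With slide as a fixed block the adjusted P-value was 0.036.

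AURKA ranged from -1.48 to -0.74 in low RFI pigs (median -1.21) and from -1.57 to -1.11 in high RFI pigs (median -1.34). It differed by 0.14 ± 0.04 (FC = 1.101; adjusted P-value = 0.074), and low RFI pigs were higher on 5 of 6 slides. With its brightest probe alone, AURKA did not meet the criterion of the methods (difference of 0.12, P-value = 0.119 in limma). The 3 AURKA probes did not carry this difference equally. For A_72_P477497 the difference was 0.25 (adjusted P-value = 0.0015 over all 37113 probes, of which 2.77% passed). A_72_P078066 differed by 0.05 (adjusted P-value = 0.92) and A_72_P073831 by 0.12 (adjusted P-value = 0.63). Of the pair that has 27 bases in common, 1 probe thus passed and the other did not, while over the pigs this pair varied together (r = 0.61). The unequal differences of the probes were not tested against each other.

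Under the criterion of the methods, UBE2C, TTK and AURKA made 3 of 25 genes, against 6.19% of all genes. The same 3 genes were those below an unadjusted P-value of 0.05, against 13.1% of all genes, so that the share in the set was not above the background by that count.

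**Figure D2:**
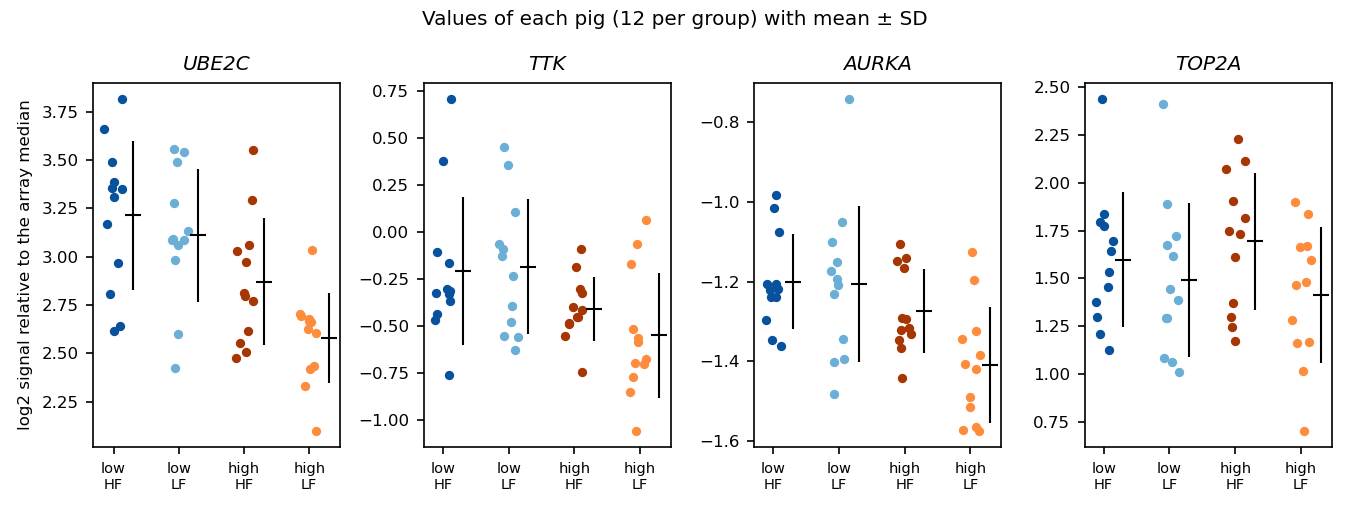
Values of UBE2C, TTK, AURKA and TOP2A in each pig by line and diet (12 pigs per group; log2 signal relative to the array median), with the mean ± SD of each group. UBE2C is lowest in high RFI pigs fed the LF diet, with a mean of 2.58, and TOP2A overlaps between the lines over most of its range.

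By role, the 6 genes of licensing and helicase had line estimates between -0.02 and 0.11 with a median of 0.04. GINS2, a subunit of the complex that activates the helicase, had the lowest P-value of this group. It ranged from -0.65 to 0.18 in low RFI and from -0.83 to 0.06 in high RFI pigs, a difference of 0.11 ± 0.06 (P-value = 0.071). The helicase subunits were level between lines: MCM2 had medians of -0.49 in low and -0.46 in high RFI pigs, MCM3 of -0.88 and -0.96, and MCM6 of 0.69 and 0.68. Their lines overlapped almost wholly: MCM6, for instance, ranged from 0.26 to 1.29 in low RFI and from 0.15 to 1.27 in high RFI pigs.

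The 3 genes of S phase supply had estimates between 0.04 and 0.09. PCNA had a median of 0.13 in low RFI and 0.02 in high RFI pigs, and differed by 0.09 ± 0.08 (P-value = 0.295). RRM2 and UHRF1, which maintains DNA methylation after replication, were at 0.06 ± 0.12 and 0.04 ± 0.09. The cyclins and their kinase were similar, with CCNB1 at 0.08 ± 0.09, CDK1 at 0.07 ± 0.10 and CCNB2 at 0.03 ± 0.05.

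The 13 mitotic genes spanned -0.03 to 0.44 with a median of 0.07. TOP2A ranged from 1.01 to 2.44 in low RFI pigs (median 1.49) and from 0.71 to 2.23 in high RFI pigs (median 1.61). Its difference was -0.01 ± 0.10 (P-value = 0.93), so that a pig-to-pig range of more than 1 log2 unit was not accompanied by a difference between lines. The motor KIF11, at 0.18 ± 0.10, BIRC5, at 0.16 ± 0.11, and PLK1, at 0.12 ± 0.07, had P-values of 0.076, 0.175 and 0.104. CDC20, CDCA8, TPX2 and AURKB were at 0.07, 0.07, 0.07 and 0.04, and NUSAP1, which bundles spindle microtubules, at -0.03 ± 0.10.

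Over the whole set, 22 of 25 line estimates were above 0, with a median of 0.07. Of all genes, 63.9% were above 0 with a median of 0.03, so most of the array leaned the same way.

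MKI67 as named on the array averaged 0.60 ± 0.11 in low RFI and 0.54 ± 0.09 in high RFI pigs (SD, n = 24), with ranges from 0.37 to 0.81 and from 0.28 to 0.72. The difference was 0.06 ± 0.03 (P-value = 0.082). This mean joins probes of different transcripts. The probe outside the NIFK transcript, O7450, differed by 0.03 (P-value = 0.73), and both NIFK probes by 0.05 and 0.09. Over the pigs, with group means removed, both NIFK probes rose and fell together (r = 0.76). They also followed the probe that the array names MKI67IP, with r = 0.72 and r = 0.87. O7450 ran against them, with r = -0.48 (rho = -0.44, adjusted permutation P-value = 0.0016) and r = -0.50 (rho = -0.48, adjusted permutation P-value = 0.00047). These are 5 of the 25 probe pairs over which the P-values were adjusted. The array's MKI67 value is hence no measure of Ki-67 transcripts by themselves.

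The second question was whether the diet changed these genes. No gene of the 25 passed the adjusted threshold for diet in limma, where 0.0% of all genes did (0 of 10946), and none passed the criterion of the methods (0.228% of all genes). UBE2C and AURKB were below an unadjusted P-value of 0.05, 2 of 25 against 1.94% of all genes. UBE2C ranged from 2.48 to 3.81 in HF pigs, with a mean of 3.04 ± 0.39 (SD), and from 2.10 to 3.56 in LF pigs, with a mean of 2.85 ± 0.40, a difference of 0.20 ± 0.09 (P-value = 0.039; adjusted P-value = 0.9995). AURKB ranged from 0.53 to 1.12 in HF pigs (median 0.80) and from 0.21 to 1.04 in LF pigs (median 0.67), a difference of 0.13 ± 0.06 (P-value = 0.044). Without high RFI HF replicate 1, AURKB had a P-value of 0.065. Both genes overlapped widely between diets, with 18 and 17 of 24 HF pigs above the median of LF pigs.

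TOP2A had a median of 1.67 in HF and 1.45 in LF pigs, a difference of 0.19 ± 0.10 (P-value = 0.067). BIRC5, the survivin of the passenger complex, had medians of 2.63 and 2.45 and a difference of 0.19 ± 0.11 (P-value = 0.098). CDK1, at 0.16 ± 0.10, followed with a P-value of 0.105. In total 23 of 25 diet estimates were above 0 with a median of 0.06, against 57.4% of all genes with a median of 0.01. The exceptions were KIF11 at -0.05 ± 0.10 and MKI67 at -0.02 ± 0.03. With all non-control spots kept, 18 of 25 were above 0 with a median of 0.03. Licensing and helicase genes had the lowest median of the 4 roles, 0.03, with values between 0.02 and 0.04.

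Immature granulocyte, neutrophil and erythroid markers had mostly positive diet estimates. Of the 10 measured erythroid genes 9 had a higher estimate in HF pigs, with a median of 0.14. KLF1, EPOR and TFRC, at 0.42, 0.36 and 0.11, had an unadjusted P-value below 0.05, and the erythroid mean ranged from 1.16 to 2.51 in HF and from 0.81 to 2.37 in LF pigs. All 7 measured immature granulocyte genes had a higher estimate in HF pigs, with a median of 0.63, and 5 of these had an unadjusted P-value below 0.05, against 1.94% of all genes. The mean of these 7 immature granulocyte genes ranged from -0.18 to 2.34 in HF and from -0.52 to 1.67 in LF pigs, with medians of 0.89 and 0.41. All 5 neutrophil genes were higher in HF pigs, with a median of 0.41 and 0 of them below an unadjusted P-value of 0.05. Of the T cell, natural killer and cytotoxic, and monocyte genes, 2 of 9, 1 of 7 and 1 of 4 were above 0, with medians of -0.02, -0.10 and -0.09. None of these genes passed the adjusted threshold for diet, and their part in the diet estimates was not tested.

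The third question was whether the diet response differed between lines. No gene of the set passed the adjusted threshold for the interaction in limma (0.0% of all genes, 0 of 10946), the criterion of the methods (0.219% of all genes) or an unadjusted P-value of 0.05 (2.33% of all genes). The estimates, taken as HF minus LF in low RFI minus the same in high RFI pigs, were below 0 for 20 of 25 genes with a median of -0.08, against 49.5% of all genes and a median of 0.00. CCNB2 had the lowest P-value, 0.074. Its means were -1.96 and -1.90 in low RFI pigs on HF and LF diets and -1.89 and -2.02 in high RFI pigs, with SD between 0.14 and 0.20, and the interaction was -0.19 ± 0.11. The 4 groups overlapped widely. With slide as a fixed block, CCNB2 had a P-value of 0.040, whereas without high RFI HF replicate 1 it was 0.117. With normexp background correction and quantile normalization the estimate was -0.08 (P-value = 0.37).

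AURKA followed with -0.13 ± 0.09 (P-value = 0.14), MKI67 with 0.08 ± 0.07 (P-value = 0.22) and CDCA8, the borealin subunit of the passenger complex, with -0.15 ± 0.14 (P-value = 0.27). Median AURKA was -1.22 and -1.20 in low RFI pigs on HF and LF diets, and -1.31 and -1.41 in high RFI pigs. CDCA8 had medians of -2.50, -2.45, -2.42 and -2.56 in the same order, with the widest range, -2.89 to -1.75, in low RFI pigs fed the LF diet. At the probe level, the NIFK probe A_72_P137636 had an interaction of 0.27 (P-value = 0.014, adjusted P-value = 0.90), where 2.28% of all probes had a P-value below 0.05. The O7450 probe of MKI67 pointed the other way, with -0.20 (P-value = 0.23). Among the cell markers, 9 of 10 erythroid, 7 of 7 immature granulocyte and 5 of 5 neutrophil genes had an interaction below 0, with medians of -0.30, -0.34 and -0.73. In contrast, 8 of 9 T cell, 4 of 5 B cell and 5 of 7 natural killer and cytotoxic genes were above 0, with medians of 0.08, 0.17 and 0.05. No marker passed the adjusted threshold for the interaction. Their part in the interaction estimates was not tested.

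Beyond the groups, the genes varied widely between pigs. The residual SD was 0.30 for the median gene of the set, from 0.10 to 0.42, against 0.24 for the median of all genes. Whether this spread was common to the genes was examined by correlation with TOP2A over the 48 pigs after removing group means, with P-values from 100000 permutations within groups, two-sided, adjusted over the 24 genes. TOP2A was followed closely by CCNB1 (r = 0.84, rho = 0.82), PCNA (r = 0.80, rho = 0.83) and MCM3 (r = 0.79, rho = 0.78). PLK1, UHRF1, CDK1, TPX2, MCM6, NUSAP1, MCM2, RRM2, GINS2 and AURKA had r between 0.64 and 0.78. For all 13 of these genes the permutation P-value was 1e-05, the smallest that 100000 permutations can give (adjusted 1.8e-05). CDC45 had r = 0.57 (rho = 0.55, adjusted permutation P-value = 6.9e-05).

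Thus 14 of 24 genes had r above 0.5 with TOP2A, and the median was 0.64. Of all other genes on the array 7.83% had r above 0.5, with a median of 0.07, and 9 of the 100 genes with the highest r belonged to the set. The correlation with CCNB1 was 0.79 without the 2 pigs farthest from the TOP2A median and 0.88 with slide means removed, and within slides it lay between 0.77 and 0.96. With slide means removed 15 genes had r above 0.5. The gene closest to TOP2A on the whole array was KIAA0101, a PCNA-binding protein, with r = 0.91, and CENPF, a kinetochore protein, had r = 0.84. Both were named after their values were seen.

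A smaller group stood apart from this pattern. CDC6, the licensing factor, ran against TOP2A with r = -0.44 (rho = -0.41, adjusted permutation P-value = 0.0038). It was negative within all 6 slides, from -0.87 to -0.03, and -0.32 without the 2 farthest pigs. UBE2C (r = -0.13, rho = -0.15), CDCA8 (r = -0.11), KIF11 (r = 0.05) and TTK (r = 0.20) did not follow TOP2A past the adjusted threshold, with adjusted permutation P-values from 0.22 to 0.76. MKI67, CCNB2, BIRC5, AURKB and CDC20 lay between, with r from 0.35 to 0.40. The MKI67 value joins both NIFK probes, with r of 0.49 and 0.42, and O7450, with r = -0.13 (adjusted permutation P-value = 0.43). The values of KIF11, CCNB2 and AURKB also average probes with unlike r, given below.

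Because UBE2C was the gene with a line effect, it was also taken as a reference, a choice made after seeing these values. Its closest members were AURKB (r = 0.57, rho = 0.54, adjusted permutation P-value = 0.00096), CDCA8 (r = 0.52, rho = 0.46, adjusted permutation P-value = 0.0041), CDC20 (r = 0.50, rho = 0.47, adjusted permutation P-value = 0.0065) and CDC6 (r = 0.48, rho = 0.48, adjusted permutation P-value = 0.0096). Only AURKB and CDCA8 exceeded 0.5, against 6.26% of all genes, and CDCA8 had r = 0.48 without the 2 pigs farthest from the UBE2C median. The median over the 24 genes was -0.02, as it was over all genes. The genes closest to UBE2C on the array were DYRK3, a kinase known from erythroid cells, with r = 0.79, and FZR1, an activator of the anaphase-promoting complex, with r = 0.74. None of the 100 closest genes belonged to the set.

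**Figure D3:**
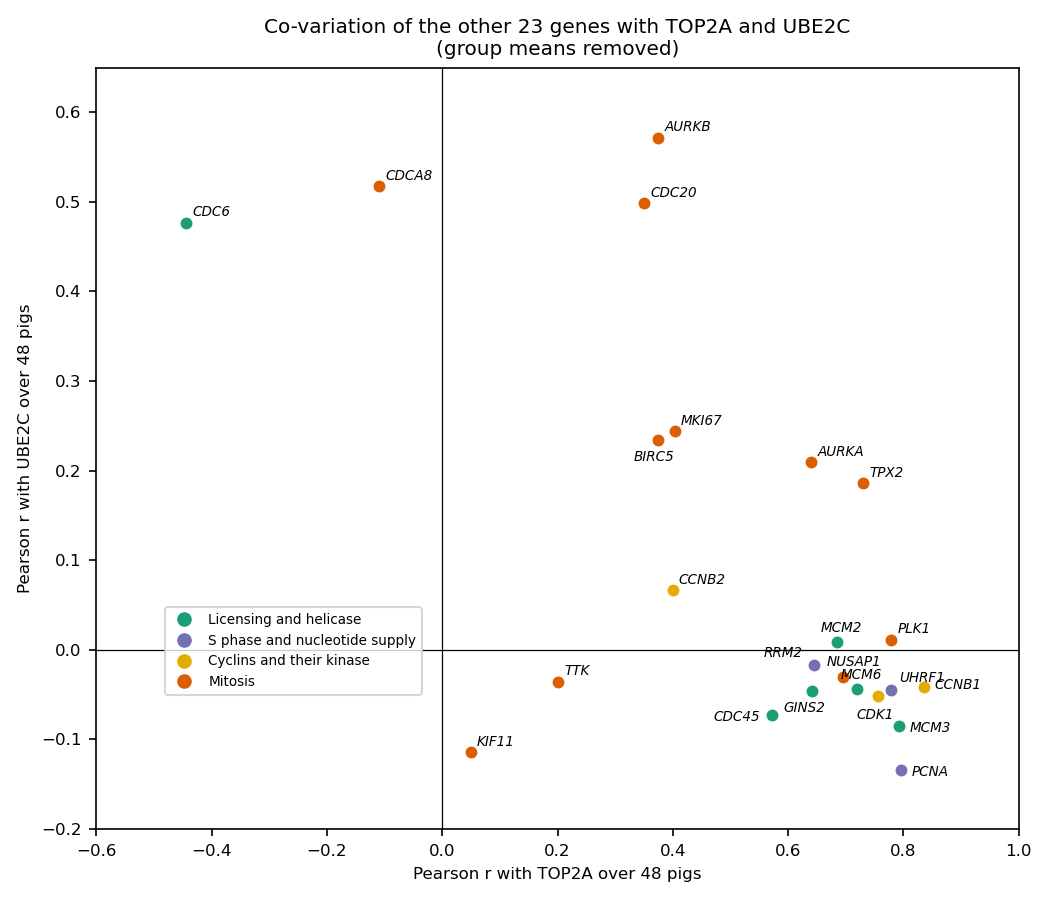
Pearson r of the other 23 genes with TOP2A (x axis) and with UBE2C (y axis) over 48 pigs with group means removed, coloured by role. Most replication genes lie at the right near 0 on the y axis, whereas CDC6, CDCA8, CDC20 and AURKB lie at the top with r of 0.48 to 0.57 with UBE2C.

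The same genes were set against means of listed blood cell markers, 10 lists in all for each reference gene. TOP2A followed the T cell list (9 genes, r = 0.47, rho = 0.49, adjusted permutation P-value = 0.0047) and the natural killer and cytotoxic list (7 genes, r = 0.47, rho = 0.46, adjusted permutation P-value = 0.0047). It also followed the plasmablast list (4 genes, r = 0.41, rho = 0.37, adjusted permutation P-value = 0.015), although this r was 0.28 without the 2 farthest pigs. It ran against the erythroid list (10 genes, r = -0.43, rho = -0.43, adjusted permutation P-value = 0.01). The other 6 lists had r between -0.10 and 0.14 with adjusted permutation P-values of 0.55 to 0.67. With slide means removed the T cell value was 0.54, and within slides it was positive on all 6.

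UBE2C followed the erythroid list and no other list past the adjusted threshold. Its r was 0.70 (rho = 0.71, adjusted permutation P-value = 0.0001, from the smallest P-value that the permutations can give), 0.70 without the 2 pigs farthest from the UBE2C median, and between 0.32 and 0.86 within the 6 slides. The correlation was carried by each of the 10 markers, from r = 0.30 for GATA1, a transcription factor of erythroid cells, to 0.59 for HEMGN. KLF1, the regulator of globin genes, had r = 0.58, and ALAS2, the first enzyme of heme synthesis in these cells, had r = 0.49. With T cell markers UBE2C had r = -0.26 (rho = -0.27, adjusted permutation P-value = 0.22), and with slide means removed r = -0.40 (adjusted permutation P-value = 0.022).

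**Figure D4:**
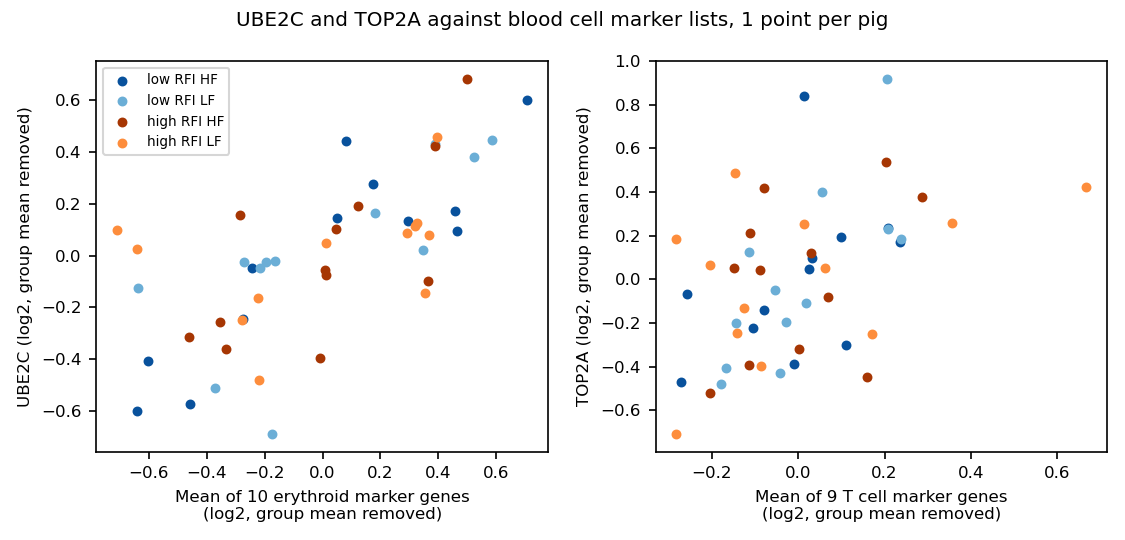
Each point is a pig, with group means removed: UBE2C against the mean of 10 erythroid marker genes (left) and TOP2A against the mean of 9 T cell marker genes (right), all on the log2 scale. UBE2C rises with the erythroid mean (r = 0.70 over all pigs), and TOP2A rises more loosely with the T cell mean (r = 0.47).

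Across the 25 genes, the correlations with the erythroid and T cell lists (50 relations adjusted together, both lists chosen after the values above were seen) were of opposite sign for many. CDC6 had r = 0.78 with the erythroid list (rho = 0.76, adjusted permutation P-value = 0.00013) and r = -0.52 with the T cell list (rho = -0.51, adjusted permutation P-value = 0.00042). CDCA8 had r = 0.66 and r = -0.38. The values of CDC6 and CDCA8 each rest on 1 probe, without a match in the RefSeq table. RRM2 had r = -0.55 with the erythroid and r = 0.66 with the T cell list, and CDK1, NUSAP1 and CCNB1 had r of -0.47, -0.49 and -0.48 with the first and 0.59, 0.57 and 0.53 with the second. The lists are measured on the same arrays with a common centring, so that their values are not independent of each other. TTK, the gene with the second largest line estimate, followed neither list, with r = -0.02 and r = -0.08. AURKA was at -0.003 and 0.13.

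Single probes divided in the same way. AURKB A_72_P440256 followed the erythroid list with r = 0.87 (rho = 0.86, adjusted permutation P-value = 8.2e-05) and UBE2C with r = 0.61, and ran against TOP2A with r = -0.31 (adjusted permutation P-value = 0.052). A_72_P735663 and A_72_P745159 of the same gene followed TOP2A with r = 0.64 and r = 0.60, and had r of -0.30 and -0.17 with the erythroid list. The latter probes varied together (r = 0.68), whereas A_72_P440256 had r of -0.22 and -0.11 with them. The AURKB mean above therefore joins probes with different patterns over the pigs, and its correlation with UBE2C was carried by A_72_P440256, since the other probes had r of 0.14 and 0.18.

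MKI67 O7450 also followed the erythroid list, with r = 0.71 (rho = 0.69, adjusted permutation P-value = 8.2e-05), and UBE2C with r = 0.45. Both NIFK probes ran against that list, with r of -0.54 and -0.56. For CCNB2, A_72_P440521 followed TOP2A with r = 0.73 and A_72_P775809 had r = -0.11, and the pair had r = 0.05 with each other. For AURKA, the probe without a line difference past the threshold and without overlap, A_72_P073831, followed TOP2A most closely (r = 0.67), and A_72_P477497, which passed for line, had r = 0.33. The probes of BIRC5, CDK1 and CDC45 varied together, with r of at least 0.76, 0.91 and 0.80 between probes of 1 gene, and the identical CDC20 probes had r = 0.82. KIF11 probes had r = 0.05 with each other. Of these, A_72_P197867 followed TOP2A with r = 0.38 (rho = 0.39, adjusted permutation P-value = 0.016), and O5659 had r = -0.16.

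**Figure D5:**
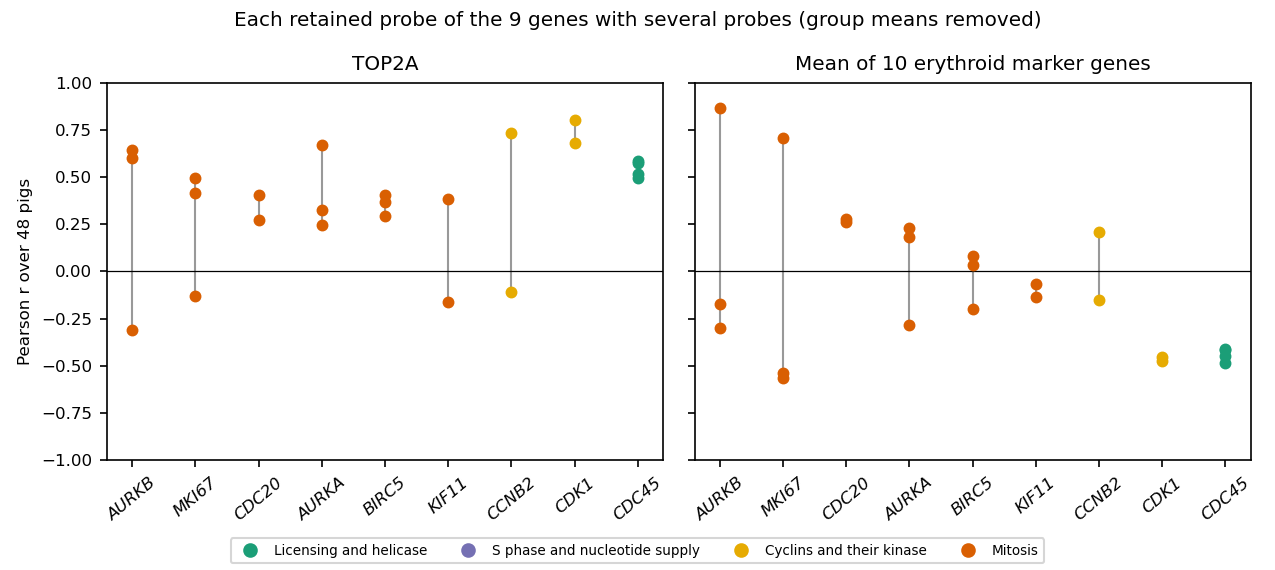
Pearson r of each retained probe with TOP2A (left) and with the mean of 10 erythroid marker genes (right) over 48 pigs with group means removed, for the 9 genes with several probes. Points are probes, vertical lines span the probes of a gene, and colour gives the role. AURKB and MKI67 each have a probe near 0.87 and 0.71 in the right panel while their other probes lie below 0.

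The rest of the pathway was followed through 160 further listed genes, of which 97 were measured. None passed the adjusted threshold for line, diet or interaction in limma, and 17, 2 and 1 had an unadjusted P-value below 0.05, against 13.1%, 1.94% and 2.33% of all genes. Of these 97 genes, 70 had a line estimate above 0, with a median of 0.05, against 63.9% of all genes with a median of 0.03. Those below the unadjusted 0.05 for line were 5 of 24 replication and checkpoint genes, 8 of 48 spindle, kinetochore and anaphase genes, 4 of 18 inhibitors, pocket proteins and transcription factors, and 0 of 7 G1 cyclins, kinases and phosphatases, beside the same 13.1% of all genes. Among replication and checkpoint genes, RFC3, a subunit of the clamp loader, differed by 0.35 ± 0.11 (P-value = 0.0023, adjusted P-value = 0.063) and CLSPN, the claspin of the checkpoint, by 0.27 ± 0.09 (adjusted P-value = 0.066). RFC3 exceeded the median of the high RFI line in 21 pigs of the low RFI line, CLSPN in 18. Among inhibitors, pocket proteins and transcription factors, E2F3 was at -0.16 ± 0.05 (adjusted P-value = 0.070), the damage-response gene GADD45A at -0.30 ± 0.12 and MYBL2, a transcription factor of mitotic genes, at 0.15 ± 0.06. Among genes of spindle and anaphase, the motor KIF15 was at 0.18 ± 0.06, ANAPC4, a subunit of the anaphase-promoting complex, at 0.22 ± 0.08 and CENPF at 0.18 ± 0.07, with adjusted P-values from 0.093 to 0.17. For diet, CDC25C, the phosphatase that activates CDK1, was at 0.13 ± 0.06 (P-value = 0.038) and CENPF at 0.14 ± 0.07 (P-value = 0.044). For the interaction, SKP1, a subunit of SCF ubiquitin ligases, was at -0.32 ± 0.15 (P-value = 0.040).

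Some leukocyte markers also differed between lines. All 5 B cell genes measured had estimates below 0, and MS4A1 and BLNK were underexpressed in low RFI pigs, at -0.36 and -0.23 (adjusted P-values of 0.0012 and 0.022). All 5 neutrophil genes were below 0 as well. CXCR2 passed the adjusted threshold, at -0.42 (adjusted P-value = 0.039), as did CD14, at -0.47 (adjusted P-value = 0.037), 1 of 4 monocyte genes, of which 3 were below 0 with a median of -0.11 over the 4. Of 9 T cell genes 8 were above 0, and the kinase LCK was overexpressed in low RFI pigs by 0.21 (adjusted P-value = 0.034). The mean of 9 T cell genes ranged from 1.30 to 1.81 in low RFI pigs and from 1.19 to 2.14 in high RFI pigs. Its medians were 1.57 and 1.36, and its averages 1.56 ± 0.15 (SD) and 1.44 ± 0.22. The part of these shifts in the line estimates of the 25 genes was not tested.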

How the data were processed

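RNA of whole blood from 48 pigs was hybridised to a custom single-colour Agilent pig array, and images were read with Feature Extraction 10.7.3.1. The deposited log2 values are, per the file headers and the scanner files, the log2 of the median spot intensity minus the array median over 37113 spots kept by the authors after filters on background, size, saturation and uniformity (R 3.0.2). This was checked on 47 arrays, within 1e-06. For high RFI HF replicate 1, 37090 deposited rows hold a single repeated value, so this array was rebuilt from its scanner intensity. The flags deposited as other values (well above background, saturated, control type) were used for counts of arrays.

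Retained spots of 1 gene name were averaged. Line, diet and interaction were fitted with limma 3.58.1 (R 4.3.3) on 4 group means, with Benjamini-Hochberg adjustment over 10946 genes and a threshold of 0.05, and the fit was tested on simulated data. Named genes were those with the lowest P-values per effect (4 of the set, up to 8 of the other lists), those past a threshold, and TOP2A, MKI67, PCNA and the MCM genes. Correlations used residuals from group means, with 100000 permutations. The members and lists were chosen with earlier results of these data known. Alternatives covered background correction, centring, blocks, probe choice, filters and prior. The number of pigs limits the precision. Promoter sequences were not used here, and the columns of the authors' annotation served for names only. Some marker genes are not reported here.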

Additional observations from a re-analysis of the deposited data

Results flagged for a closer look

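Spots named for 6 of the listed genes were measured by the scanner but are not among the retained spots. They enter no comparison above except where all non-control spots were kept. The spots of BUB1, the spindle checkpoint kinase, of CCNE1, cyclin E1, and of RRM1, the large subunit of ribonucleotide reductase, were each well above background on 48 of 48 arrays. With all non-control spots kept, their line differences were 0.05 ± 0.11, 0.06 ± 0.09 and -0.03 ± 0.06 (SE, limma, adjusted P-value = 0.99 for each), and their diet differences were 0.05, 0.06 and 0.05. Further spots were above background on part of the arrays: 1 of CDK1 on 23, 1 of CDC45 on 10 and 1 of UBE2C on 2 of 48 arrays.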

How the results depend on the processing

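UBE2C stayed past the adjusted threshold for line under all 13 alternatives run, with log2 differences from 0.27 (all non-control spots kept) to 0.44. The count of genes of the set past that threshold was 1 under 11 alternatives, 2 with slide as a fixed block (UBE2C and TTK) and 3 with the replicate number as a block (TTK with an adjusted P-value of 0.027 and AURKA of 0.049 in addition). The sample labels do not say whether the replicate numbers pair the pigs. The deviations of same-numbered pigs had a median r of 0.224 (-0.619 to 0.719 over 72 pairs), and of -0.006 with slide means removed. Such correlations cannot show whether the pigs were paired by design. Under either block, 1 gene, CCNB2, had an interaction P-value below 0.05 in place of 0. Genes of the set below an unadjusted P-value of 0.05 for line numbered 2 to 4 under 12 alternatives, against 3. For diet, 1 gene in place of 2 was below 0.05 with the brightest probe, with all non-control spots, without high RFI HF replicate 1 and with the deposited column of that pig. Diet estimates above 0 numbered 18 to 24 over the 13 alternatives, against 23. Keeping all non-control spots put 12 in place of 5 interaction estimates above 0. With the deposited, mostly constant column of that pig, 8 line estimates were above 0, 1 line P-value was below 0.05, 0 interaction estimates were above 0, the line median was -0.0316, AURKA for line -0.0220 and MKI67 for the interaction -0.0994, with no other column changed. That column also moved the diet median of the set to 0.185 and the interaction median to -0.256. The MKI67 probe outside the NIFK transcript, an alternative chosen after seeing the data, had a diet difference of 0.0341 and an interaction of -0.20. UBE2C had 1 member with r above 0.5 in place of 2 without the 2 farthest pigs. Promoter motifs were not run. The number of pigs limits what could be detected.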
